A study of Homo sapiens with 32 samples.

Results

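The sites of N6-methyladenosine (m6A) called in nuclear-encoded RNA of HEK293T cells, a human embryonic kidney line, that carried wild-type (WT) eIF3d were compared between cells given thapsigargin (Tg) and cells given the solvent DMSO. The members were all entries of the 2 deposited WT site lists that did not lie on the mitochondrial chromosome, with repeated entries removed, and they came to 2894 distinct positions of the 6267 in all 4 lists of the series. The WT DMSO list held 2401 nuclear sites and the WT Tg list 1082. Each list was pooled by the authors over 2 input and 2 immunoprecipitated (IP) m6A-eCLIP libraries, so no comparison of the lists had a spread between replicates or a test.

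The series compared WT eIF3d with a DD form (S528D and S529D), each after 600 nM Tg or an equal volume of DMSO for 16 h, by RNA-Seq (8 libraries) and m6A-eCLIP (16 libraries). Subunit-Seq (8 libraries), which sequences RNA held by the isolated cap-binding domain of eIF3d beside input RNA, was made from cells with another eIF3d form, HA-eIF3d-TEV, under the same 2 treatments. The cells of all groups were HEK293T cultures in serum-containing DMEM, and nothing in the labels says whether the 2 libraries of a group came from separate cultures or whether a line was 1 clone. How WT eIF3d was expressed and whether native eIF3d remained in these cells is not given in the sources used here.

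m6A is placed on nascent mRNA by a methyltransferase complex around METTL3, METTL14 and WTAP, is removed by the demethylases FTO and ALKBH5, and is read by proteins such as those with a YTH domain. In mRNA it is known to gather near stop codons and in 3′ untranslated regions, mostly within the motif DRACH, and an antibody to m6A also recovers the related m6Am, which is formed at an adenosine next to the mRNA cap. Thapsigargin inhibits the SERCA pump and empties the calcium store of the endoplasmic reticulum (ER), a standard trigger of the integrated stress response (ISR), in which phosphorylated eIF2α lowers general translation while ATF4 is made. eIF3d is the eIF3 subunit that can bind the cap and serve translation when the usual cap-binding factor eIF4E is restrained.

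The sequences around called sites at the gene starts of 5 stress-related genes and HNRNPA2B1 are shown first, because there the lists named single bases next to the start of the transcript. All sequences are from the RefSeq promoter table of GRCh38.p14, run 5′ to 3′ on the strand of the gene, and have the called base or bases in capitals with 10 bases on each side. Positions are counted from 1 at the gene start that this table uses. In ATF4 that start lies inside the RefSeq gene span used further on, so that position 2 is base 5 of the span. In ATF4, the main transcription factor of the ISR, the DMSO list had the A at position 2 (chr22:39520563-39520563, plus strand) and the Tg list had a 2-base call that held this A and the C before it (chr22:39520562-39520563). The Tg list alone had position 5 of JUN, an AP-1 transcription factor (chr1:58784043-58784043, minus strand), position 3 of PHGDH, the first enzyme of serine synthesis (chr1:119711936-119711936, plus strand), and the first base of HNRNPA2B1, an RNA-binding protein that has been described as an m6A reader (chr7:26200746-26200746, minus strand). The DMSO list alone had position 3 of PSAT1, the next enzyme of serine synthesis (chr9:78297127-78297127, plus strand), and the first base of SLC38A2, an amino acid transporter (chr12:46372773-46372773, minus strand).
ATF4 in DMSO: cacggcagccAtttctacttt
ATF4 in Tg: ccacggcagcCAtttctacttt
JUN in Tg: ataagggctcAgagttgcact
PHGDH in Tg: aatactgcccAgttactctag
HNRNPA2B1 in Tg: ctctagcggcAgtagcagcag
PSAT1 in DMSO: ggccggctgcAgactctcacc
SLC38A2 in DMSO: gggctgctccAcagccgcgcg

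Gene starts called in both lists included several histone genes, and these are shown for comparison with the stress genes. They were the first base of H4C5 (chr6:26204610-26204610), position 6 of H3-3A (chr1:226062721-226062721), position 2 of H2AC20 (chr1:149886919-149886919) and position 6 of PSMA4, a proteasome subunit (chr15:78540449-78540449), all on the plus strand.
H4C5 in both: cttgtttttcAgatttttgcg
H3-3A in both: gccatctttcAattgtgttcg
H2AC20 in both: ttctctttcaAtcttattttg
PSMA4 in both: gggccatattAgcagcggtta

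Windows around 35116 RefSeq gene starts, from 250 bases before to 50 bases from the start on, covered 108 sites of the DMSO list (4.5%) and 30 of the Tg list (2.77%). Every one of these calls held an adenosine on the strand of the site, and the calls of 1 base were at an A in 99 of 99 and 27 of 27. Of the sites from the start on, 47 of 94 (50.0%) in DMSO and 11 of 24 (45.8%) in Tg lay in the first 10 bases of the 50. The first base itself was called 22 times in DMSO and 4 times in Tg, and A is the first base in 44.4% of all windows. Before the start lay 14 DMSO sites and 6 Tg sites. In both lists the sites near starts were thus most dense at the very start, while the DMSO list had more of them.

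**Figure D1:**
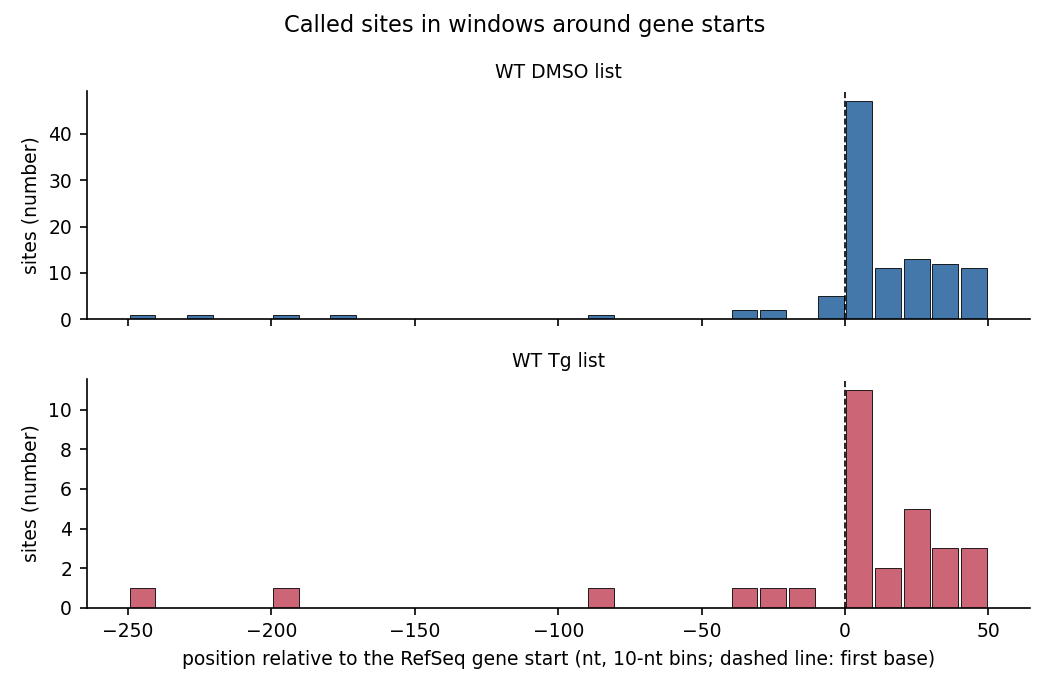
The number of called sites (vertical axis, with a scale of its own for each list) is plotted in 10-nt bins of the distance from the RefSeq gene start in nt, for the WT DMSO list above and the WT Tg list below. The bin of the first 10 bases holds 47 DMSO sites and 11 Tg sites, more than any other bin of its list.

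The motif DRACH, searched on the strand of the site with D as A, G or T, R as A or G, and H as A, C or T around the fixed A and C, was held by 10 of 99 1-base DMSO sites in these windows (10.1%, 95% Wilson interval 5.58 to 17.6). It was held by 0 of 27 Tg sites, which allows a share of up to 11.1%. Of all 2202015 adenosines in the windows on the gene's strand, 7.25% sit in the motif, so neither share lay apart from this background beyond its interval. In the first 10 bases, the base before the called A was C in 24 of 45 DMSO sites (53.3%, 39.08 to 67.06) and in 8 of 10 Tg sites (80.0%, 49.02 to 94.33), against 37.5% of all adenosines there. That background pools the 10 positions and is not matched to those of the sites. Many of the sites were at the first base, where the base before lies ahead of the gene start. Intervals here and below cover counting error only, since sites of 1 gene are not independent. Of the sites in the windows, 14 were in both lists, 94 in DMSO alone and 16 in Tg alone. The 2 ATF4 calls on the same A counted as 1 of each of the last 2 classes, because they differed in width. The same held for the A at position 16 of COX7A2, which was called with the C before it in Tg.

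The Tg list was shorter across the genome. It had 45.1 nuclear sites for every 100 of the DMSO list, and 490 mitochondrial sites against 599, or 81.8 for every 100. Chromosomes with sites ranged from 24.4 per 100 on chromosome 18 (45 sites in DMSO, 11 in Tg) to 78.6 on chromosome 21 (14 and 11), and chromosome 14 had 73.6 (72 and 53). Merging sites within 50 nt gave 1982 clusters in DMSO and 961 in Tg. The lists hold no coverage or score, so the depth behind the lengths of the lists is unknown, and a difference in depth and a difference in methylation cannot be told apart. In bulk lysates, fewer methylated molecules and fewer molecules of an RNA cannot be told apart either, nor can fewer cells and less RNA per cell.

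Of the positions, 589 had the same start, end and strand in both lists, which was 24.5% of the DMSO list (22.85 to 26.29) and 54.4% of the Tg list (51.46 to 57.38). The DMSO list alone held 1812 and the Tg list alone 493. Counting a site as shared when at least 1 nt overlapped gave 604, and a distance of up to 50 nt gave 779 DMSO sites (32.4%) and 669 Tg sites (61.8%). The Tg list was therefore not a subset of the DMSO list under any of these matches.

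By gene, 1434 genes had a DMSO site and 725 a Tg site, and 513 had both, which was 35.8% of the first group and 70.8% of the second. Of those 513 genes, 201 had fewer Tg than DMSO sites, 284 had equal numbers and 28 had more, and 94 shared no position. Of the DMSO-only positions, 599 (33.1%) lay in a gene that also had a Tg site, and of the Tg-only positions, 219 (44.4%) lay in a gene that also had a DMSO site. Most genes had a single site, 1011 in DMSO and 543 in Tg. Genes were taken as RefSeq spans, which give no exons here, so whether a site was exonic, intronic or in a UTR was not determined.

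Sites in protein-coding genes outside any inner pseudogene fell in number from 1164 to 442, or 38.0 in Tg per 100 in DMSO. Sites in pseudogenes, which are copies of genes that mostly make no protein, went from 918 to 464, or 50.5 per 100. Protein-coding genes made up 48.5% of the DMSO list (46.48 to 50.48) and 40.9% of the Tg list (37.96 to 43.81), and pseudogenes 38.2% (36.31 to 40.2) and 42.9% (39.96 to 45.85). Positions also overlapped differently, since 186 of the 1164 DMSO sites in protein-coding genes (16.0%) and 310 of the 918 in pseudogenes (33.8%) were also in the Tg list. A further 206 DMSO and 94 Tg sites lay in a protein-coding gene at a pseudogene inside it. Noncoding RNA genes held 38 and 18 sites, and 75 and 64 lay in no span.

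**Figure D2:**
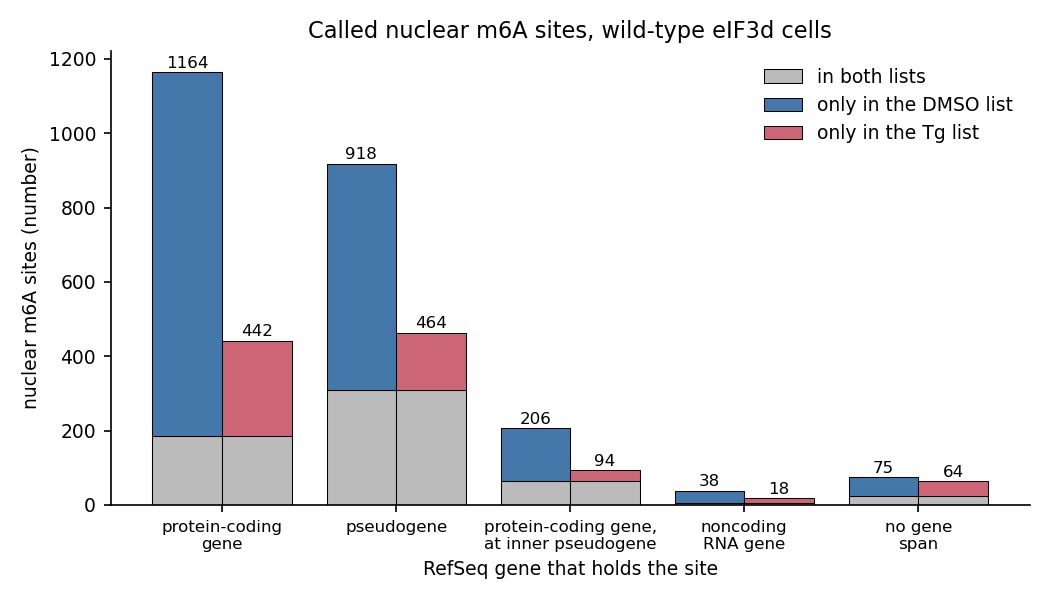
Bars give the number of nuclear sites (vertical axis) by the kind of RefSeq gene that holds them (horizontal axis), with the DMSO list at left and the Tg list at right of each pair and the positions in both lists in grey. Sites in protein-coding genes go from 1164 to 442 and sites in pseudogenes from 918 to 464, with 186 and 310 positions in common.

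A pseudogene is often nearly identical to the gene it was copied from, and how reads that fit both were placed is not given in the sources used here, so each pseudogene site below is uncertain as to its gene of origin. RNA-Seq levels of these pseudogenes were low. Of the pseudogenes matched to the expression tables, the mean over the 4 WT libraries was under 1 RPKM (a read count divided by gene length and library depth) for 42.4% of those with sites in both lists, 67.4% with DMSO sites alone and 88.1% with Tg sites alone. For protein-coding genes these shares were 16.5%, 17.7% and 21.8%. XRCC6P2, a copy of the DNA repair gene XRCC6, had 3 sites in DMSO and 5 in Tg, and its RPKM was 3.18 and 17.2 in DMSO and 2.82 and 12.7 in Tg. LDHBP2, a copy of a lactate dehydrogenase gene, had 6 sites in each list, all 6 in common. EIF3EP1, a copy of the eIF3 subunit gene EIF3E, had 6 in each and shared 2 of them.

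Ribosomal protein genes, whose RPL and RPS symbols name the large and small subunit, had the most sites of any protein-coding family described here and lost many of them. The protein-coding members held 252 DMSO sites in 57 genes and 65 Tg sites in 30 genes, or 25.8 per 100, while other protein-coding genes went from 912 to 377, or 41.3 per 100. Only 23 of the 252 positions (9.13%, 6.16 to 13.32) were also in the Tg list, against 163 of 912 (17.9%, 15.52 to 20.49) in other protein-coding genes. The pseudogenes with RPL or RPS symbols went from 277 to 158 sites, or 57.0 per 100, and kept 120 positions (43.3%, 37.62 to 49.21). The genes and their copies thus differed in both measures, with no test.

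**Figure D3:**
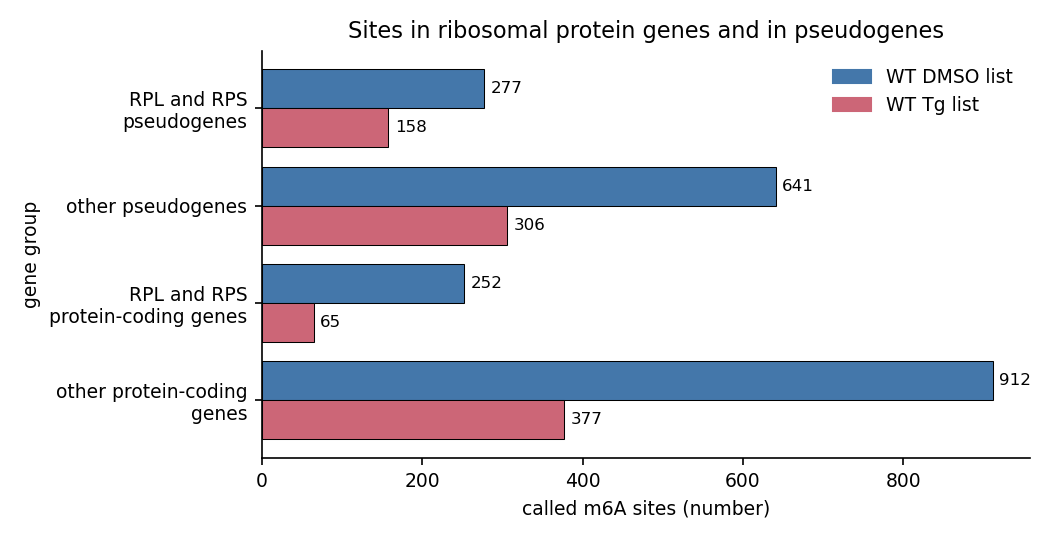
The number of called sites (horizontal axis) is shown for RPL and RPS pseudogenes, other pseudogenes, RPL and RPS protein-coding genes and other protein-coding genes, with the WT DMSO list above and the WT Tg list below in each pair. RPL and RPS protein-coding genes go from 252 to 65 sites, the steepest fall of the 4 groups.

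Among 9637 genes with a mean of at least 1 RPKM, 9.8% had a site in the DMSO list and 4.77% in the Tg list. Against this background, 56 of 78 tested ribosomal protein genes (71.8%) had a DMSO site and 30 (38.5%) a Tg site. The background is not matched for RNA level, and of the 94 genes at 500 RPKM or more, 51.1% had a DMSO site and 29.8% a Tg site. RPL32 (chr3:12834485-12841582, minus strand), of the large subunit, went from 8 sites to 0, and RPS2 (chr16:1962058-1964826), of the small subunit, from 7 to 0. RPL36 (chr19:5690295-5691875, plus strand), which had the most sites of any gene in DMSO, went from 19 to 7 with 3 positions in common. RPL5 went from 9 to 1, RPL8 from 11 to 3, RPL29 from 10 to 3 and RPS19 from 12 to 6.

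These transcripts were still abundant after Tg. RPL36 was at 813 and 2570 RPKM in the 2 DMSO libraries and at 668 and 1715 in the 2 Tg libraries, so the groups overlapped. RPL32 was at 1439 and 1862 in DMSO and at 882 and 1141 in Tg, with both Tg libraries below both DMSO libraries. By limma, the log2 difference of Tg against DMSO was −0.71 with a standard error (SE) of 0.82 for RPL32 and −0.43 (SE 0.92) for RPL36, and both had an adjusted p = 1. The median log2 difference of the 78 tested ribosomal protein genes was −0.23, against 0.12 over all genes tested.

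Other genes tied to translation had fewer Tg sites too, and RACK1 and TPT1 were among the largest falls. RACK1 (chr5:181236897-181243906, minus strand), a scaffold protein of the small ribosomal subunit, went from 14 sites to 2, with 1 position in common. TPT1 (chr13:45333471-45341183, minus strand), an abundant growth-related protein whose mRNA, like those of ribosomal proteins, starts with a pyrimidine tract, went from 12 to 2. EEF2 (chr19:3976056-3985463, minus strand), the factor that moves the ribosome along the mRNA, held 9 sites in DMSO and 7 in Tg, 3 of them in common. EIF4EBP1 (chr8:38030534-38060365), which binds and restrains eIF4E and is also a target of ATF4, went from 7 to 1. Its single Tg site, chr8:38060209-38060209, was also in the DMSO list. RPKM of EIF4EBP1 was 731 and 1378 in DMSO and 507 and 1209 in Tg, which overlapped.

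**Figure D4:**
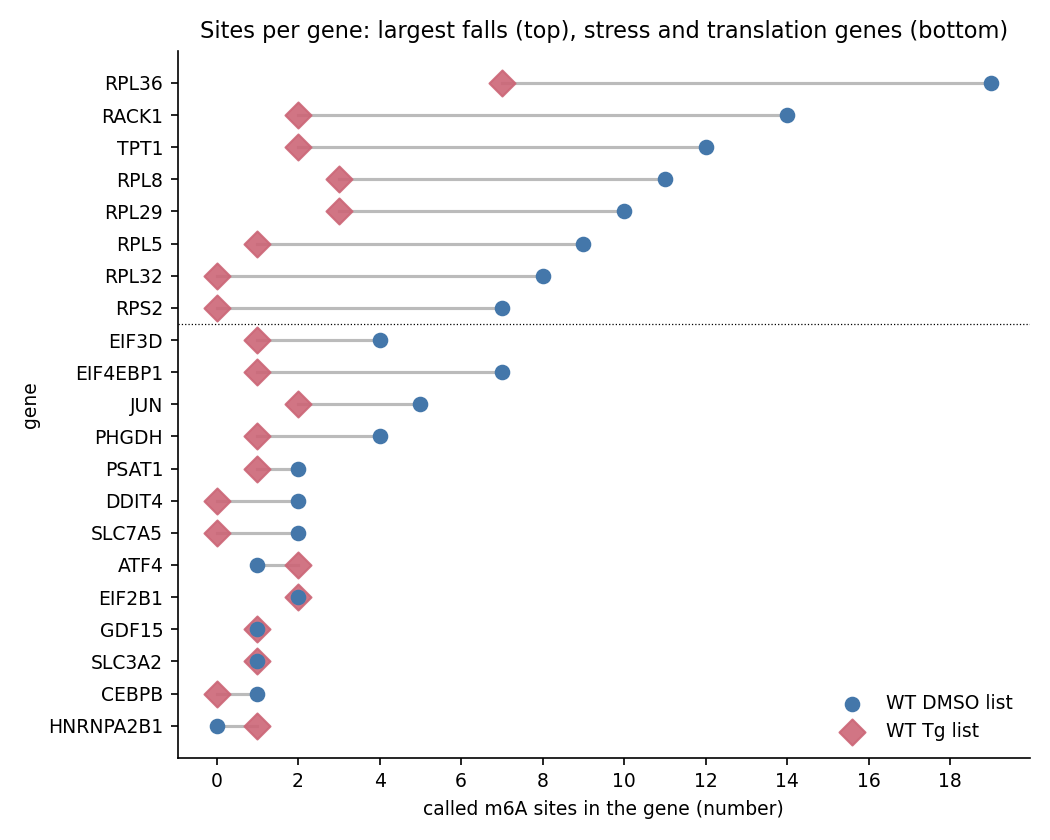
Each row is a gene, and the horizontal axis is the number of called sites in it, with circles for the WT DMSO list and diamonds for the WT Tg list. Above the dotted line are 8 of the largest falls, among them RPL36 (19 to 7) and RACK1 (14 to 2), and below it stress and translation genes, of which ATF4 (1 to 2) and HNRNPA2B1 (0 to 1) have more sites in Tg.

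Gains were fewer and smaller. SRRM2 (chr16:2752638-2771412, plus strand), a splicing factor, went from 0 to 3 sites, at 3.72 and 3.81 RPKM in DMSO and 3.19 and 3.45 in Tg. TMEM220 also went from 0 to 3, but all 3 lay at a pseudogene inside its span. The other genes named as largest gains rose by 2 sites each, and most of them were pseudogenes or had their sites at one. GCDH went from 3 to 5 and SNX6 from 2 to 4, and all of these sites lay at an inner pseudogene. The pseudogenes EIF3LP1, RPS18P2 and DHX9P1 each went from 1 to 3.

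EIF3D itself, ENSG00000100353.17, on the minus strand of chr22:36510855-36529166, had 4 sites in DMSO and 1 in Tg. The site in both lists was chr22:36519539-36519539, at 52.6% of the gene span. The 3 sites called in DMSO alone lay close to the end of the gene, at chr22:36510932-36510932, chr22:36511575-36511575 and chr22:36511649-36511649, which is 95.7% to 99.6% of the span. EIF3D was at 68.3 and 69.6 RPKM in the DMSO libraries and at 44.2 and 91.2 in the Tg libraries, 69.0 ± 0.897 and 67.7 ± 33.2 (SD, n = 2 each). The Tg libraries thus lay on either side of the DMSO libraries. The tables do not separate an introduced EIF3D copy from the native gene. Of the other eIF3 subunits, EIF3G went from 1 site to 0 and EIF3E from 0 to 1.

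ISR transcription factors and their targets had 17 sites in DMSO and 6 in Tg. Of 28 tested members, 11 (39.3%) had a DMSO site and 5 (17.9%) a Tg site, beside the 9.8% and 4.77% of all genes, and all 5 with a Tg site also had one in DMSO. ATF4 (ENSG00000128272.14) had its 2 calls on the same A near the start and a further site in Tg alone at chr22:39522136-39522136, base 1578 of its 2128-nt span. Its RPKM was 268 and 258 in DMSO and 224 and 314 in Tg. GDF15, a secreted stress cytokine, kept its single site at chr19:18388973-18388973. SLC3A2, a subunit of amino acid transporters, had 1 site in each list but at different bases, 28345 and 32395 of its span. PHGDH went from 4 sites to 1 and PSAT1 from 2 to 1, with no position in common in either gene. PHGDH sites in DMSO lay at bases 59, 11512, 25179 and 32054 of a 32282-nt span, and its Tg site at base 3.

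Of the 11 ISR members with a DMSO site, 6 had sites in DMSO alone, beside 921 of all 1434 genes with a DMSO site. The share of the ISR members was thus not above that of all genes. DDIT4, a stress-induced inhibitor of mTORC1, and SLC7A5, an amino acid transporter, each went from 2 sites to 0. The transcription factor genes CEBPB and CEBPG and the transporter genes SLC7A11 and SLC7A1 went from 1 to 0. RNA-Seq called none of the ISR members between Tg and DMSO, but it called none of the 9637 genes tested either. The median log2 difference of the list was 0.12, the same as that of all genes. This median was 0.57 for 18 tested ER chaperone and unfolded protein response genes and 0.77 for 3 tested AP-1 genes. It was 0.32 for 16 tested kinases, subunits and regulators of eIF2. These list medians were not tested.

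JUN (ENSG00000177606.6, minus strand of chr1:58780791-58784047) was the AP-1 gene with sites, 5 in DMSO and 2 in Tg. Position chr1:58783142-58783142, base 906 of the 3257-nt span, was in both lists. The other 4 DMSO sites lay together between bases 1904 and 2038, and the other Tg site was base 5, shown above. RPKM of JUN was 14.5 and 17.7 in DMSO and 20.1 and 40.1 in Tg, so both Tg libraries lay above both DMSO libraries. The log2 difference was 0.79 (SE 0.69), with limma's adjusted p = 1.

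In the m6A machinery, the shares of genes with a site were near those of all genes, over few members. Of 8 tested writers, 1 (12.5%) had a DMSO site, namely WTAP with 1 site, and 0 a Tg site. The erasers FTO and ALKBH5, of which 1 was tested, had none in either list. Of 10 tested readers, 0 had a DMSO site and 1 (10.0%) a Tg site, at the first base of HNRNPA2B1. Among the kinases, subunits and regulators of eIF2, EIF2B1, a subunit of the exchange factor eIF2B, kept both of its sites (chr12:123621362-123621362 and chr12:123621379-123621379), and PPP1CB, a phosphatase catalytic subunit, had 1 site in Tg alone. Of the ER chaperones and unfolded protein response genes, the lectin chaperone CANX and the disulfide isomerase PDIA4 each had 1 site in DMSO alone, and PDIA6 had the same 1 site in both. EIF4G1, the scaffold of the eIF4F complex, also kept its 1 site.

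Larger families are given beside the 45.1 Tg sites per 100 DMSO sites of the whole lists and the 9.8% and 4.77% of tested genes with a site. Core and linker histone genes went from 32 sites to 9 (28.1 per 100), with 7 positions in common, and 28.8% and 13.5% of tested members had a site. Zinc finger genes with ZNF symbols went from 27 to 7 (25.9 per 100) and shared none, with 9.26% and 1.85% of tested members. Solute carriers went from 24 to 9 (37.5 per 100) with 5 in common, and their shares of 11.8% and 5.04% were near those of all genes. Translation initiation factors with EIF symbols went from 22 to 8 (36.4 per 100) with 7 in common, and 16.3% and 12.2% had a site. A list of 18 long noncoding RNAs went from 5 to 1, and 33.3% and 8.33% of its 12 tested members had a site. The 4385 long noncoding RNA genes with LINC, -AS or SNHG symbols went from 12 to 9 (75.0 per 100). Of these genes, 8 had sites in DMSO alone, 6 in Tg alone and 3 in both, beside 921, 212 and 513 of all genes. Only 1.19% and 0.596% of their 671 tested members had a site, so the ratio rests on few genes.

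Along genes, the lists had close shares of sites at the gene end, and the Tg list had a smaller share at the start. In protein-coding genes of known strand, outside pseudogenes, 296 of 987 DMSO sites (30.0%, 27.21 to 32.92) and 111 of 360 Tg sites (30.8%, 26.29 to 35.79) lay in the last 10% of the gene span. Within 500 nt of the gene end lay 21.6% and 21.4%. In the first 10% lay 179 DMSO sites (18.1%, 15.86 to 20.66) and 42 Tg sites (11.7%, 8.75 to 15.39), and these intervals did not overlap. The median site lay at 0.70 of the span in DMSO and 0.72 in Tg. A span includes introns, so these shares are not positions in the mRNA.

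Genes with high RNA levels had sites more often in both lists. Of 5402 genes with a mean of 1 to 5 RPKM over the 4 WT RNA-Seq libraries, 5.98% had a DMSO site and 2.63% a Tg site, and of 94 genes at 500 RPKM or more, 51.1% (41.12 to 60.93) and 29.8% (21.48 to 39.68). At every level the Tg share was lower, and the intervals of the lists overlapped at no level. RNA-Seq depth, estimated from the RPKM values of 22283 genes, was 4504557 to 10152128 reads per library.

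**Figure D5:**
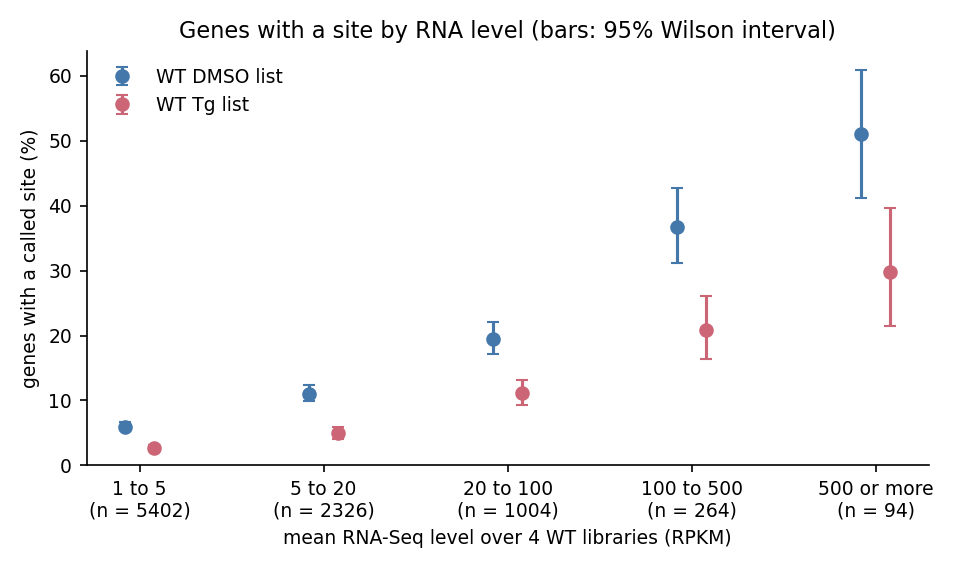
The percentage of genes with a called site (vertical axis) is plotted against the mean RNA-Seq level over the 4 WT libraries in RPKM (horizontal axis, 5 ranges with the number of genes in each), with 95% Wilson intervals as bars. The shares rise from 5.98% to 51.1% in the WT DMSO list and from 2.63% to 29.8% in the WT Tg list.

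No gene passed the RNA-Seq test of Tg against DMSO in WT cells. Limma called 0 of 9637 genes (0%) at an adjusted p under 0.05, and 24 had an unadjusted p under 0.05. Of the genes tested, 606 (6.29%) had sites in DMSO alone, 122 (1.27%) in Tg alone and 338 (3.51%) in both. Their median log2 differences, relative to the all-gene median of 0.12, were −0.04, 0.01 and −0.07. The value for genes with both was −0.12 within replicate 1 and −0.02 within replicate 2, and it was 0.08 without WT Tg replicate 1 and 0.01 without WT DMSO replicate 2. For genes with Tg sites alone it was −0.06 without either Tg library. For genes with DMSO sites alone it was −0.07 and −0.03 within the replicates and −0.113 to −0.001 with each library left out. With no filter on RPKM it was 0.046. The RNA-Seq values thus gave no direction that held under every setting for any of these classes.

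HEK293T markers were checked in the same 4 libraries. Of 9 markers, 5 were at 1 RPKM or more in all 4, and PAX2 and SALL4 were under 0.1 in all 4. The summed level of the 9 was 51.1 to 189 RPKM. NEFM and LIN28B were under 1 in WT DMSO replicate 2 alone, at 0.253 and 0.924. NEFM was at 62.2 and NEFL at 58.4 in WT DMSO replicate 1, and both were far lower in replicate 2 of either treatment. Of 5 markers of blood, erythroid and liver cells, PTPRC, HBB and CD3E were at 0 in all 4, and the sum was 0.448 to 1.7 RPKM.

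Subunit-Seq gave the level of the same genes in RNA held by the cap-binding domain, in HA-eIF3d-TEV cells. By limma with replicate as a block, 21.4% of 9813 genes were higher in IP than in input in DMSO and 1.75% lower, and in Tg 14.6% and 1.62%. Among 330 genes with sites in both lists, 56 (17.0%) were higher and 26 (7.88%) lower in DMSO, and 39 (11.8%) and 20 (6.06%) in Tg. Their median log2 difference of IP against input was −0.50 relative to all genes in DMSO (−0.14 and −0.86 within the 2 replicates) and −0.36 in Tg (−0.40 and −0.51). Among 124 genes with Tg sites alone, 39 (31.5%) were higher and 0 lower in DMSO, and 26 (21.0%) and 0 in Tg. Their relative median was 0.30 in DMSO (0.01 and 0.39 within replicates) and 0.05 in Tg, where it was −0.03 without Input Tg replicate 1. Genes with DMSO sites alone had −0.16 and −0.10, and the latter was 0.01 without IP Tg replicate 1. Without IP DMSO replicate 2, the DMSO medians were −0.16 for genes with both, −0.05 for DMSO sites alone and 0.12 for Tg sites alone, and without Input DMSO replicate 2 the last was 0.05. Without IP DMSO replicate 1 the first 2 were −0.87 and −0.25.

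Of the 6 genes shown first with a called start site, JUN, HNRNPA2B1, ATF4 and SLC38A2 were higher in IP and PHGDH and PSAT1 did not pass the threshold. The differences of single genes given here are not relative to all genes. Over all genes tested, the median log2 difference of IP against input was 0.962 in DMSO and 0.875 in Tg. PHGDH lay below these medians in both treatments, and PSAT1 in Tg. JUN was at 49.5 and 3.87 RPKM in the DMSO inputs and at 174 and 102 in the DMSO IPs, and at 40.4 and 15.5 in the Tg inputs and 314 and 374 in the Tg IPs. Every IP library lay above every input library. The log2 difference was 3.10 (SE 0.64) in DMSO, with limma's adjusted p = 0.00016, and 3.72 (SE 0.64) in Tg, with limma's adjusted p = 9.23e-07. HNRNPA2B1 rose in IP by 2.59 (SE 0.64, limma's adjusted p = 0.0022) in DMSO and 2.37 (limma's adjusted p = 0.0049) in Tg. SLC38A2 rose by 2.74 (SE 0.66, limma's adjusted p = 0.00149) and 2.85 (limma's adjusted p = 0.000646). ATF4 rose by 1.82 (SE 0.46, limma's adjusted p = 0.00285) and 1.41 (limma's adjusted p = 0.0249). EIF3D had 1.30 (SE 0.59, limma's adjusted p = 0.0848) and 0.58 (limma's adjusted p = 0.471), PHGDH 0.62 and 0.31 and PSAT1 1.11 and 0.70, none of them past the threshold. Ribosomal protein genes that lost sites were lower in IP in part, with −1.12 (SE 0.27, limma's adjusted p = 0.00196) for RPS2 and 0.20 (limma's adjusted p = 0.741) for RPL5 in DMSO.

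The DD lists went the opposite way in length, with 1283 nuclear sites in DMSO and 4356 in Tg. Of the 589 positions in both WT lists, 409 (69.4%) were also in the DD DMSO list and 510 (86.6%) in the DD Tg list. Of the 1812 positions in the WT DMSO list alone, 270 (14.9%) and 675 (37.3%) were in these lists, and of the 493 in the WT Tg list alone, 62 (12.6%) and 185 (37.5%). RPL and RPS protein-coding genes had 116 sites in DD DMSO and 428 in DD Tg, against 252 and 65 in WT. None of the 4 EIF3D positions was in either DD list, and no other EIF3D site was. Neither WT start call of ATF4 nor position 5 of JUN was in a DD list with the same start, end and strand. A DD call of another width on these bases would not be counted. ATF4 had 2 sites in DD Tg, 1 of them chr22:39522136-39522136. By the same match, position 3 of PHGDH and the first bases of HNRNPA2B1 and SLC38A2 were in the DD Tg list but not in the DD DMSO list. Position 3 of PSAT1 was in both DD lists.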

How the data were processed

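Site lists were analysed for 2 WT groups, each pooled by the authors over 4 m6A-eCLIP libraries. The deposited lists hold positions and strand and no other score. The expression tables hold RPKM made by the authors, per the file headers. The submitters' processing notes name cutadapt, STAR, BWA, DESeq2 and GRCh38 without versions or roles, and the site caller and gene counter are not given in the sources used here. Sites were placed in RefSeq gene spans of GRCh38.p14 on the same strand (either strand where the tables gave none, for 1179 DMSO and 586 Tg sites), a protein-coding gene before another, then the shortest span. Of genes with sites, 1507 (91.6%) matched the expression tables.

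Expression was tested as log2(RPKM + 1) with limma 3.58.1 in R 4.3.3 (intensity trend, two-sided, Benjamini-Hochberg over all genes, threshold 0.05), for genes with a mean of at least 1 RPKM, over 4 groups of 2 libraries per assay. Fold changes on this scale understate the change of low genes, and p-values measure only the spread between these libraries. The mean for the filter was taken over all 8 RNA-Seq libraries, but for Subunit-Seq over its 4 input libraries alone. RNA-Seq had 9637 genes and 4 residual degrees of freedom. Subunit-Seq, whose tables were deposited per replicate, had 9813 genes, the replicate as a block and 3, with an infinite prior. Depths were estimated from 22283 genes whose RNA-Seq RPKM values could be written as whole multiples of 1 read, within 0.02. Since these genes were kept by that rule, it is no check of the RNA-Seq depths. With the same value of 1 read per gene, 99.6% to 99.8% of values in each Subunit-Seq library were whole within 0.02. This gave depths of 5095443 to 16804776 reads in these genes for Subunit-Seq. The model was tested on simulated data with 1 fixed noise level for all genes, not the spread of these libraries. That check therefore does not show which changes could be called here. Members, lists and named genes (EIF3D, the genes with most sites, the 10 largest falls and rises, and list members with a site) were chosen with earlier results of these data known, and the text prints a part of them. Some of the genes named by this rule are not reported here. Alternatives covered matching, gene assignment, filters, the pseudocount, the block and each library left out. Leaving out pseudogene sites and matching by 1 shared nt were added after seeing the data.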

Additional observations from a re-analysis of the deposited data

Results flagged for a closer look

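The change in list length with Tg went opposite ways in the 2 genotypes: the WT Tg list had 45.1 nuclear sites for every 100 of the WT DMSO list, and the DD Tg list had 339.5 for every 100 of the DD DMSO list. With 1 pooled list per group, this difference was not tested.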

How the results depend on the processing

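Leaving out sites in a pseudogene span left 1276 DMSO and 522 Tg sites, 214 in common, and 805 and 363 genes. Requiring 2 sites per gene left 423 and 182 genes. The Tg list was the shorter one in each case. With no filter on RPKM, the relative RNA-Seq medians were 0.036 for genes with both and 0.046 for DMSO alone, both of the opposite sign. Of the relative Subunit-Seq medians in Tg, genes with both had −0.562 at a mean of at least 5 RPKM and −0.464 with a pseudocount of 0.1. Genes with DMSO sites alone had −0.183 with that pseudocount, and genes with Tg sites alone −0.003 and −0.085 under the same 2 settings. Leaving out each library in turn gave RNA-Seq medians of −0.158 to 0.081 (both), −0.113 to −0.001 (DMSO alone) and −0.062 to 0.012 (Tg alone). In Subunit-Seq it gave −0.869 to −0.162, −0.254 to −0.048 and 0.049 to 0.328 in DMSO, and −0.49 to −0.253, −0.129 to 0.014 and −0.031 to 0.12 in Tg, in the same order. The cause of these shifts was not tested. Limma called 0 genes under every library left out. With the replicate block it also called 0, with 67 at an unadjusted p under 0.05, and the class medians stayed at −0.071, −0.044 and 0.012. The deviations of same-numbered WT DMSO and WT Tg libraries correlated at 0.864 over genes, but only 2 numbers exist, so the samples share only a number. In all, 29 alternative values moved by more than the spread between replicates or, for counts, by over 1.5 times, and 108 stayed within it, some of them small medians that changed sign. The depth of the site lists is unknown, which limits every comparison of their length.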
